A study of Rattus norvegicus with 6 samples.

Results

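The RNA levels described here are those of genes for subunits of eIF3, the translation initiation factor 3 complex, in the rat line H9c2. The genes were chosen by symbol from 10 subunit names. A row was found for 7 of these 10 names (Eif3a, Eif3b, Eif3c, Eif3d, Eif3f, Eif3g and Eif3m) among 24360 gene rows, together with 20 of 44501 transcript rows. Eif3e, Eif3h and Eif3i are not analysed here. All 7 genes passed the filter on low counts. H9c2 is a myoblast line from embryonic rat heart, labelled as wild type in all samples, and each group has 3 samples. The Rb2 samples are labelled with ginsenoside Rb2, a saponin of ginseng, and the Ctrl samples with NC. The protocol is worded alike for all 6 samples and describes 48 h with Rb2, then 4 to 6 h deprived of glucose and oxygen, then 12 h of reoxygenation. It gives no dose, and it does not say whether Ctrl cells went through the deprivation or received a vehicle. The labels do not state that replicates came from separate cultures, and the spread behind each p-value may therefore be technical. In bulk RNA of this kind, fewer cells of a type and less RNA per cell cannot be told apart.

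The eIF3 complex binds the small ribosomal subunit, keeps it apart from the large one, and helps to load the initiator tRNA complex and the mRNA. In mammals its core is built from subunits with PCI or MPN domains, folds that also build the COP9 signalosome and the lid of the proteasome. EIF3A and EIF3C form the base of that core, to which EIF3M (PCI) and EIF3F (MPN) belong. EIF3B and EIF3G belong to a mobile module around it, and EIF3D has been shown to bind the mRNA cap in human cells. EIF3J is loosely held, while EIF3K and EIF3L sit at the edge of the core.

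Total counts per sample ran from 5193077 to 5570308 in Rb2 and from 5787587 to 8793390 in Ctrl, where replicate 1 was the deepest library. Over all genes its chi-square values per degree of freedom were 10.8 to 21.6 against the other 5 samples, and those of all pairs without it were 1.71 to 10.3. This statistic grows with depth, and the part of depth in these values was not tested. Of 11551 genes tested with edgeR, 219 were higher and 93 lower in Rb2 (adjusted p under 0.05). The split was 463 and 80 with library size as the only scaling and 135 and 92 with upper-quartile factors. The median log2 fold change over all genes was -0.016 with TMM factors and 0.096 with library size only. The cells are labelled as embryonic cardiomyocytes. Of 9 cardiac markers, Tnnt2 and Mybpc3 passed the filter, Myh6, Myh7, Tnni3 and Nppb did not and Actc1 had no count, with summed levels in CPM, counts scaled to a common library total, of 48.5 to 55.1 CPM in Rb2 and 50.7 to 62.2 CPM in Ctrl. The sums of 7 fibroblast markers were 5285 to 5894 CPM in Rb2 and 4554 to 5088 CPM in Ctrl, with Dcn at 0 and Pdgfra not past the filter. The 8 skeletal muscle markers with a row, 4 of them past the filter, summed to 42.9 to 50.3 CPM in Rb2 and 33.2 to 43.5 CPM in Ctrl. The epithelial list summed to 35.4 to 40.6 CPM in Rb2 and 30.3 to 39.2 CPM in Ctrl with Krt8 alone above 0. The leukocyte list summed to 27.6 to 31.9 CPM in Rb2 and 19.2 to 31.4 CPM in Ctrl. Cd14 made up most of the leukocyte sum and alone passed the filter, with Ptprc at 0 and Cd68 and Cd3e not past it. Of 6 endothelial markers only Tek and Vwf had a row, and their sum reached at most 0.181 CPM in Rb2 and 0.114 CPM in Ctrl. Nppa and Ryr2 of the cardiac list and Itgam of the leukocyte list had no row either. A missing row does not show that a gene was silent. These sums are in CPM without TMM factors, and on that scale the fibroblast groups did not overlap while the skeletal groups did. None of the 5 fibroblast and 4 skeletal genes tested was called, beside 2.70% of all genes tested. Any part of cell make-up in the eIF3 results was not tested.

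Among the eIF3 genes, Eif3a rose in Rb2 and the other 6 did not pass the test. Adjusted p-values from edgeR's quasi-likelihood test fell under 0.05 in 2.70% of all genes tested, 1.90% higher and 0.805% lower in Rb2, and a single gene of 7 cannot be read against that share. The log2 fold changes of the 7 genes ran from -0.24 (Eif3g) to 0.73 (Eif3a) around a median of 0.02, and the median of all genes tested was -0.016. The groups did not overlap in 4 of the 7 genes, Eif3a and Eif3m higher in Rb2 and Eif3d and Eif3g lower, against 27.2% of all genes tested (15.0% higher and 12.2% lower). An unadjusted p under 0.05 was found for Eif3a, Eif3m and Eif3g, and for 20.0% of all genes tested.

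**Figure D1:**
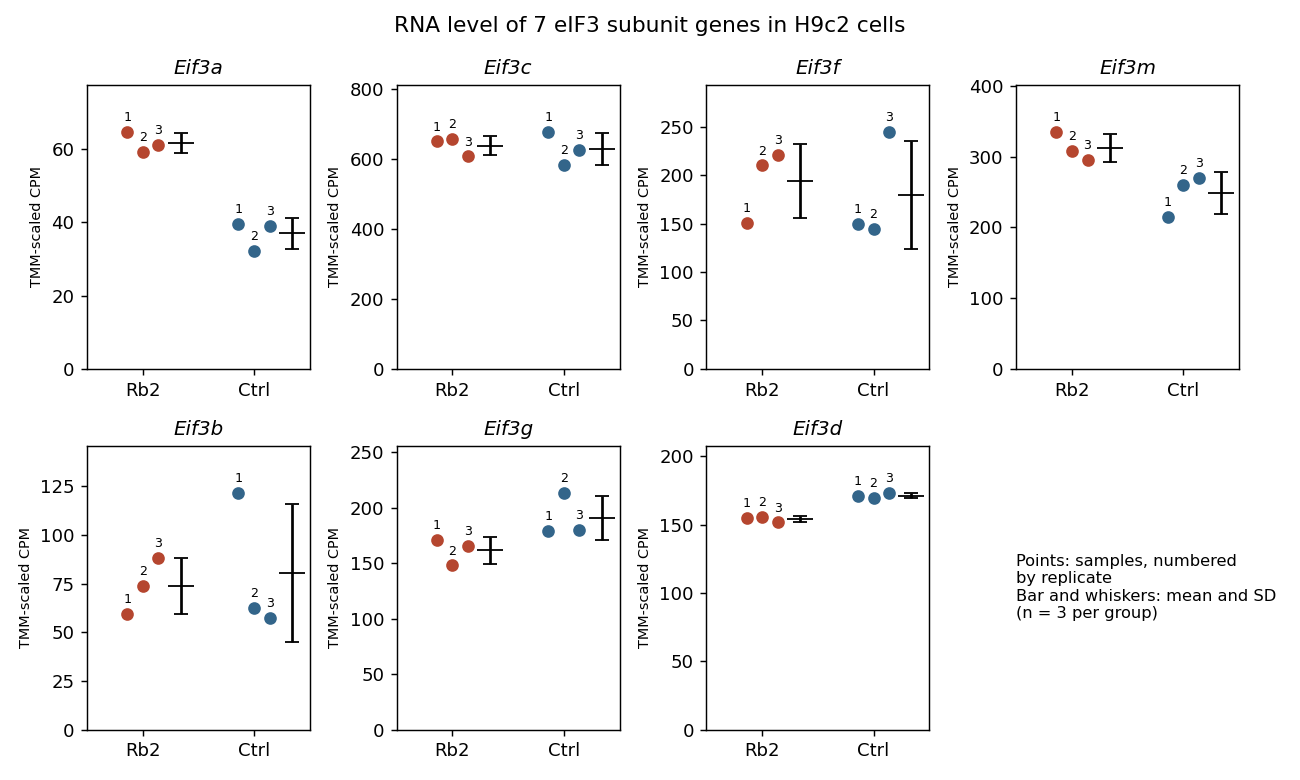
The RNA level of each of the 7 eIF3 genes is plotted in TMM-scaled CPM for the Rb2 (left) and Ctrl (right) samples. Points are samples numbered by replicate, and the bar with whiskers beside them is the mean and SD (n = 3). The Rb2 samples of Eif3a all lie above the Ctrl samples, Eif3b and Eif3f spread widely within groups, and the 6 Eif3d samples lie in a narrow band.

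Eif3a (ENSRNOG00000010117) encodes the largest subunit, the scaffold along which the core is assembled. It had 363, 342 and 332 counts in Rb2 replicates 1 to 3 and 327, 178 and 224 counts in Ctrl replicates 1 to 3. In CPM after scaling by TMM factors, which set the libraries to a common level, it had 64.6, 59.3 and 61.1 CPM in the Rb2 samples, against 39.7, 32.2 and 39.1 CPM in the Ctrl samples. All 3 Rb2 samples lay above all 3 Ctrl samples. The means were 61.7 ± 2.71 CPM in Rb2 and 37.0 ± 4.19 CPM in Ctrl (SD, n = 3 each), a log2 fold change of 0.73 (SE 0.13, edgeR adjusted p = 0.0295). With an offset for gene length, the log2 fold change of this gene of 5132 bases was 0.60 (edgeR adjusted p = 0.0405). The median length of all genes tested was 2021 bases. Over the whole table, that offset gave 135 genes higher and 114 lower in Rb2. The smallest count, 178, carries the largest counting error of the 6 samples, 7.50%. The call was lost when any 1 of 4 libraries was left out, Rb2 replicate 1 (adjusted p = 0.106), 2 (0.188) or 3 (0.15) or Ctrl replicate 2 (0.146), while the fold change stayed between 0.65 and 0.81 in all 6 such fits. The fits that lost the call held 39, 3, 11 and 15 called genes in all, in the same order, against 312 with all samples.

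Eif3c (ENSRNOG00000018761), the other base of the core, had the highest CPM of the 7 genes. It had 651, 658 and 608 CPM in Rb2, against 677, 585 and 628 CPM in Ctrl. The Rb2 values lay inside the Ctrl range. The log2 fold change was 0.02 (SE 0.09, edgeR adjusted p = 0.921), and its sign changed with the scaling.

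Eif3m (ENSRNOG00000012738), a PCI subunit of the core, had 334, 308 and 296 CPM in Rb2, against 215, 260.1 and 270.5 CPM in Ctrl. The groups did not overlap, but the test over all genes was not passed (log2 fold change 0.33, SE 0.11, edgeR adjusted p = 0.124). Ctrl replicate 1 was the lowest of the 6 samples. Without that library the gene passed (log2 fold change 0.25, edgeR adjusted p = 0.0371), and 2 eIF3 genes were then called. That fit called 896 of 11901 genes in all, and the fold change of Eif3m was smaller in it than with all samples.

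Eif3f (ENSRNOG00000015221), an MPN subunit, was uneven within both groups. It had 150.4, 210.1 and 221 CPM in Rb2, against 149.6, 145 and 244 CPM in Ctrl. Rb2 replicate 1 was level with Ctrl replicates 1 and 2, and the highest value was in Ctrl replicate 3. The SD was 19.6% of the mean in Rb2 and 31.2% in Ctrl, well above the largest counting error of 3.53%, and the log2 fold change was 0.11 (SE 0.23, edgeR adjusted p = 0.831).

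Eif3b (ENSRNOG00000001253), the scaffold of the mobile module, had 59.3, 73.7 and 88.1 CPM in Rb2, against 122, 62.7 and 57.5 CPM in Ctrl. A single library set the Ctrl mean: Ctrl replicate 1 was 2.02 times the mean of Ctrl replicates 2 and 3. The log2 fold change was -0.14 (SE 0.30, edgeR adjusted p = 0.839) with that library and 0.31 (edgeR adjusted p = 0.312) without it. It was also above 0, at 0.049 and 0.050, on the log2 scale of CPM plus 1 or 0.1.

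Eif3g (ENSRNOG00000020619), an RNA-binding subunit of the same module, had 171, 148 and 165 CPM in Rb2, against 179, 213 and 179.6 CPM in Ctrl. The groups lay close and did not overlap (log2 fold change -0.24, SE 0.11, edgeR adjusted p = 0.249). Eif3d (ENSRNOG00000005804), the cap-binding subunit, had 155, 156 and 152 CPM in Rb2, against 171, 169 and 173 CPM in Ctrl. Its samples were the tightest of the 7 genes, with an SD of 1.43% of the mean in Rb2 and 1.11% in Ctrl, below the largest counting error of 3.48%. The groups did not overlap, yet edgeR did not call the gene (log2 fold change -0.15, SE 0.08, adjusted p = 0.343).

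Among RefSeq pseudogenes named after these genes, 1 each was found for Eif3b, Eif3d, Eif3g and Eif3m and none for Eif3a, Eif3c and Eif3f. Copies listed under other names were not searched for. How reads shared with such copies were counted is not given in the sources used here. The counts of those 4 genes, and of any gene with copies under other names, are uncertain to that extent. Eif3el1, a gene named for likeness to Eif3e, had 4, 3 and 3 counts in Rb2 and 7, 5 and 5 counts in Ctrl.

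Because the scaling between libraries moves all genes of a sample together, Eif3a was also set against the other eIF3 genes of the same sample. It was chosen for this because it was the called gene, so the ratios describe the same rise on another scale and are no separate evidence of it. Per 100 counts of Eif3c there were 9.92, 9.01 and 10.0 counts of Eif3a in Rb2, against 5.86, 5.50 and 6.23 in Ctrl. Per 100 counts of Eif3d there were 41.7, 38.0 and 40.3 in Rb2, against 23.2, 19.0 and 22.6 in Ctrl. In both ratios the groups lay far apart compared with their spread. Relative to Eif3g the means were 38.3 counts in Rb2 and 19.7 counts in Ctrl. Relative to Eif3m they were 19.7 in Rb2 and 15.1 in Ctrl. The groups nearly touched relative to Eif3b (69.3 in the lowest Rb2 sample and 68.1 in the highest Ctrl sample), Eif3f (27.6 and 26.5) and Eif3m (19.3 and 18.5). In all 6 such ratios the 3 Rb2 samples were above the 3 Ctrl samples, with mean log2 differences from 0.41 (Eif3m) to 0.98 (Eif3g). Eif3a is in all 6 ratios, so they are not independent. The ratios take out the scaling between libraries but not an effect of gene length. Eif3a has 5132 bases, and Eif3c, the longest of the other 6 genes, has 3268. Any part of length in these ratios was not tested. The exact two-sided permutation p over samples was 0.1 for each ratio and 0.1 after adjustment over the 6, the smallest that 3 samples against 3 can give.

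**Figure D2:**
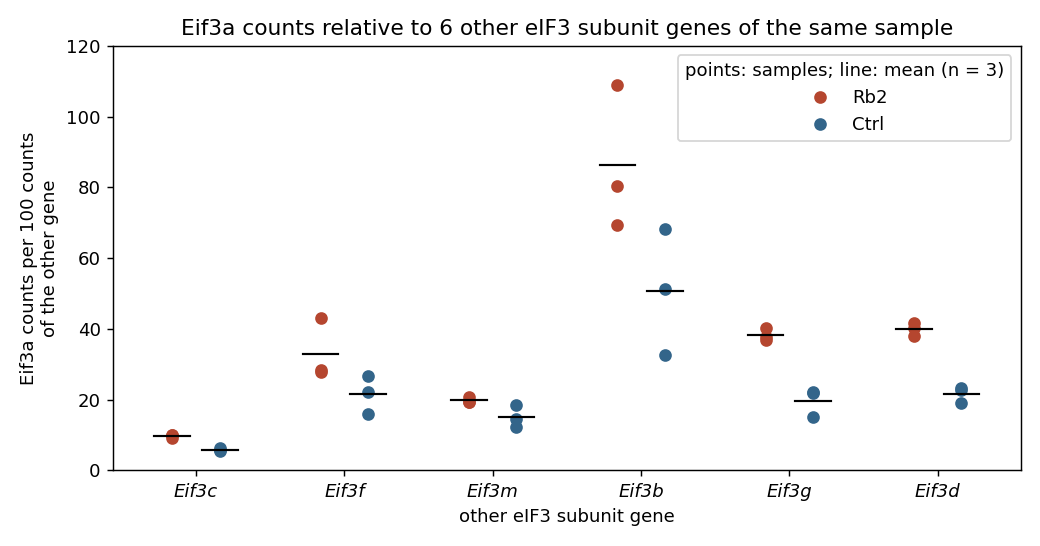
The counts of Eif3a per 100 counts of each of 6 other eIF3 genes are plotted for every sample, Rb2 left of Ctrl, with a line at the group mean (n = 3). Each Rb2 point lies above each Ctrl point for all 6 genes. The nearest points of the groups lie close for Eif3b, Eif3f and Eif3m and well apart for Eif3c, Eif3d and Eif3g.

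As a sum, the 7 genes took 0.165% ± 0.003 of all counts in Rb2 and 0.147% ± 0.010 in Ctrl (SD, n = 3 each). On that scale the groups did not overlap. After TMM scaling the sums were 1586 to 1612 CPM in Rb2 and 1467 to 1592 CPM in Ctrl, and the groups overlapped. The summed level thus depended on the scaling, and Eif3c made up the largest part of it.

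The complex holds its subunits in equal number, but their RNA levels were far from equal when set per length. CPM per kilobase of the deposited gene length ran from 241 ± 15.3 (Eif3m) to 12.0 ± 0.53 (Eif3a) in Rb2, a ratio of 20.0, and from 193 ± 14.2 (Eif3c) to 7.21 ± 0.82 (Eif3a) in Ctrl, a ratio of 26.7 (SD, n = 3). In Rb2 the order was Eif3m, Eif3c, Eif3f, Eif3g, Eif3d, Eif3b and Eif3a, with Eif3l between Eif3g and Eif3d, Eif3k between Eif3d and Eif3b, and Eif3j between Eif3b and Eif3a. Only Eif3f and Eif3g were neighbours whose Rb2 samples overlapped. In Ctrl the order began with Eif3c, Eif3m, Eif3g, Eif3f and Eif3l, each overlapping the next, and Eif3l also overlapped Eif3d. From Eif3d on the Ctrl order was that of Rb2, with no overlap between neighbours. Eif3a was the lowest of the 10 eIF3 genes per length in both groups. Levels per length assume that longer transcripts give more reads, and the read type is unsettled here. In CPM without length the lowest was Eif3j, at 32.6 in Rb2 and 21.7 in Ctrl, beside Eif3a at 61.7 in Rb2 and 37.0 in Ctrl. The place of Eif3k also depends on the length used. Its deposited gene length is 2827 bases, but 97.5% of its counts lay on the new model ONT.1431.1 of 1227 bases. With each gene's mean transcript length weighted by counts, an alternative chosen after seeing the data, Eif3k had 150.3 ± 4.15 CPM per kilobase in Rb2 and 170.4 ± 4.31 in Ctrl (SD, n = 3 each). That put it at rank 3 of 10 in Rb2 and rank 4 of 10 in Ctrl, close to Eif3f and Eif3g in Rb2 and to Eif3g in Ctrl, and Eif3a was the lowest in both groups on this scale too.

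**Figure D3:**
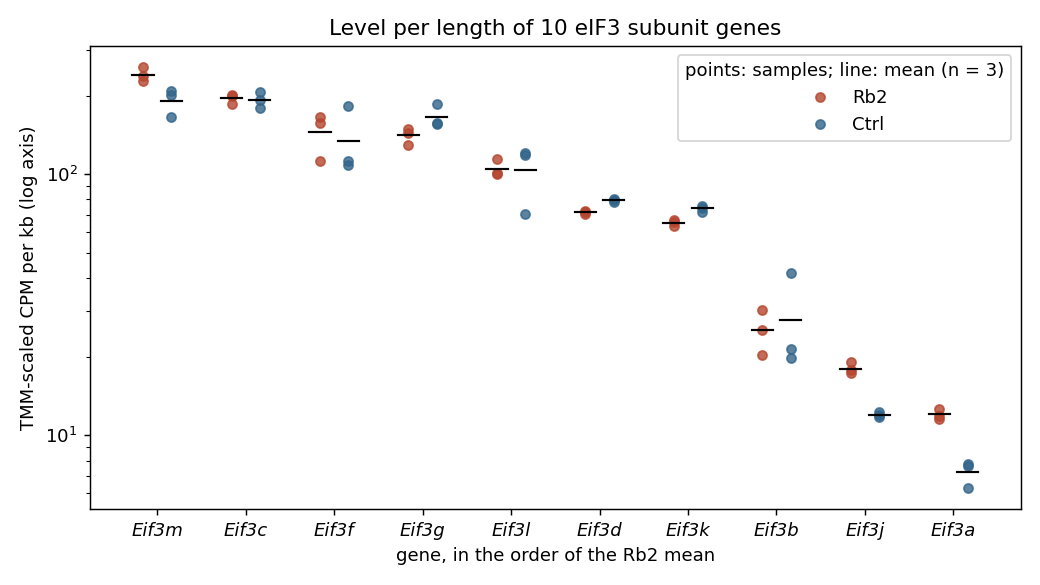
The level per length of 10 eIF3 genes is plotted in TMM-scaled CPM per kilobase on a log axis, in the order of the Rb2 mean, with Rb2 points left of Ctrl points and a line at each mean (n = 3). Eif3b, Eif3j and Eif3a lie well below the other 7 genes in both groups.

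Of the other 3 subunits, Eif3j (ENSRNOG00000016459) came nearest to a call. It had 34.5, 32.1 and 31.3 CPM in Rb2, against 21.6, 22.2 and 21.3 CPM in Ctrl, groups that were tight and did not overlap. Its log2 fold change was 0.59 (SE 0.13, edgeR adjusted p = 0.0507), just outside the threshold, and 7 of 18 alternatives called it, among them DESeq2 (adjusted p = 0.046). Eif3k had 186, 189 and 179 CPM in Rb2, against 211, 213 and 203 CPM in Ctrl (log2 fold change -0.18, SE 0.08, edgeR adjusted p = 0.264). Eif3l was at 234, 207 and 205 CPM in Rb2, against 145, 248 and 244 CPM in Ctrl, where replicate 1 was again the sample apart (log2 fold change 0.02, edgeR adjusted p = 0.964).

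Stretches of promoter are shown for Eif3a, the called gene, and for members on both sides of 0 that carry 1 of a pair of short motifs common in promoters of housekeeping genes. The sequences are from RefSeq (GRCr8), and all 7 genes matched its table by symbol. The window searched runs from 250 bases before to 50 bases after the annotated start, on both strands. CACGTG, the E-box read by factors such as USF and MYC, was in 3 of the 7 windows (Eif3a, Eif3b and Eif3f) and in 6.42% of 33469 promoters. CCGGAAG, the core read by ETS factors, was also in 3 (Eif3d, Eif3g and Eif3m) and in 8.75% of promoters. No window held both motifs, so no matches overlapped, and Eif3c had neither. The motifs were picked after the sequences were seen. Capitals mark the motif in either direction, so CTTCCGG is CCGGAAG on the other strand. The stretch of Eif3a (chr1:269918978-269919007, minus strand) holds 30 bases around its match, which begins at base 31 after the start. The other stretches are the 100 bases before the start of Eif3b (chr12:19334769-19334868, minus), Eif3f (chr1:172368962-172369061, plus), Eif3g (chr8:27709947-27710046, minus) and Eif3m (chr3:111897194-111897293, minus).
Eif3a: ccgcgagggaatCACGTGgctccttccttt
Eif3b: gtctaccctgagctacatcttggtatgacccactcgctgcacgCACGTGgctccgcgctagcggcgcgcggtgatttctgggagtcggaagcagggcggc
Eif3f: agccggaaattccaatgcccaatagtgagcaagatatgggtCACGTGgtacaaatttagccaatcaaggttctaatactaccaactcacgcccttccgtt
Eif3g: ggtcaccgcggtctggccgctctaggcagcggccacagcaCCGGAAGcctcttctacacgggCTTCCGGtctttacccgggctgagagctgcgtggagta
Eif3m: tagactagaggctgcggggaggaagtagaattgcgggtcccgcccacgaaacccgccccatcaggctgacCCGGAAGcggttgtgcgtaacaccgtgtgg
The genes with CACGTG had log2 fold changes of 0.73 (Eif3a), -0.14 (Eif3b) and 0.11 (Eif3f). Those with CCGGAAG had -0.15 (Eif3d), -0.24 (Eif3g) and 0.33 (Eif3m). Each motif was in genes on both sides of 0, of which Eif3a alone was called. Eif3b was above 0 without Ctrl replicate 1 (log2 fold change 0.31). Whether either motif goes with a change was not tested.

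At the transcript level, 9 of the 20 eIF3 transcripts passed the filter and edgeR called none. Over all 16679 transcripts tested the share called was 0% (2304 transcripts, or 13.8%, had an unadjusted p under 0.05, as had 2 of the 9). For 5 genes a single annotated transcript held nearly all counts. Eif3a-201 (ENSRNOT00000066947) had 61.1 ± 2.77 CPM in Rb2 and 37.3 ± 4.40 CPM in Ctrl (SD, n = 3 each), with a log2 fold change of 0.71 that did not pass (SE 0.13, edgeR adjusted p = 0.147). DESeq2 called this transcript (log2 fold change 0.73, adjusted p = 0.00149) among 307 transcripts in all. A new model of Eif3a, ONT.2339.1, had 3, 5 and 5 counts in Rb2 and 0 in each Ctrl sample, where 0 counts allow up to 3. It was too rare to pass the filter. Eif3b-201 and Eif3m-201 took all counts of their genes, and Eif3f-201 took 99.9%.

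Eif3c and Eif3d had a pair of tested transcripts each. Most Eif3c counts lay on a new model, ONT.1816.3, rather than on the annotated Eif3c-201. The share of ONT.1816.3 was 85.6%, 86.3% and 85.6% in Rb2, against 83.0%, 84.9% and 86.1% in Ctrl (exact two-sided permutation p = 0.3). The 95% Clopper-Pearson interval of the lowest share was 82.0% to 84.0%, which covers counting error only. In Eif3d the new model ONT.16702.2 had a share of 7.24%, 7.45% and 5.70% in Rb2, against 11.6%, 7.58% and 5.75% in Ctrl (exact two-sided permutation p = 0.4). Ctrl replicate 1 was the highest, with an interval of 9.93% to 13.3%. A change in transcript usage was called by edgeR's diffSpliceDGE in 0.417% of 3361 genes tested (3.36% had an unadjusted p under 0.05). Neither Eif3c nor Eif3d was among them, with or without adjustment, and the gene-level F test called neither.

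Among the factors that eIF3 works with, 4 genes rose in Rb2, Eif2s2, Eif2s3, Eif4g2 and Abce1. Of 22 listed initiation partners 20 were tested, and the remaining 16 were not called in either direction. The median log2 fold change of the 20 was 0.35, beside -0.016 for all genes tested, of which 2.70% were called. The difference between the partners and the eIF3 genes was not tested. Eif2s2, the beta subunit of the factor eIF2 that brings the initiator tRNA, had 117, 126 and 112 CPM in Rb2, against 59.5, 51.3 and 57.5 CPM in Ctrl (log2 fold change 1.07, SE 0.11, edgeR adjusted p = 0.00362). Eif2s3, its gamma subunit, had 40.2, 36.9 and 40.1 CPM in Rb2, against 13.0, 16.8 and 22.0 CPM in Ctrl (log2 fold change 1.19, edgeR adjusted p = 0.024). Both genes were higher in every Rb2 sample than in any Ctrl sample. Rodents carry a close copy of Eif2s3 on the Y chromosome, so its counts are uncertain where reads fit both.

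Eif4g2, an eIF4G relative that recruits eIF3 to some mRNAs without the cap-binding protein, had 227, 218 and 209 CPM in Rb2, against 95.9, 112 and 140 CPM in Ctrl (log2 fold change 0.91, edgeR adjusted p = 0.0194). Abce1, which splits ribosomes and can stay on the small subunit with eIF3, had 18.2, 20.8 and 17.7 CPM in Rb2, against 8.62, 9.76 and 12.6 CPM in Ctrl (log2 fold change 0.88, edgeR adjusted p = 0.0472). Under an offset for gene length both missed the threshold (edgeR adjusted p = 0.0559 and 0.0677), and Abce1 also did with upper-quartile factors (0.0541) and among known genes only (0.0574). Leaving out Rb2 replicate 2 ended all 4 calls (adjusted p from 0.066 for Eif2s2 to 0.236 for Abce1) in a fit that called 3 genes in all, with log2 fold changes of 1.03 (Eif2s2), 1.23 (Eif2s3), 0.91 (Eif4g2) and 0.80 (Abce1), and leaving out Rb2 replicate 1 or 3 or Ctrl replicate 2 ended those of Eif2s3, Eif4g2 and Abce1 (0.0716 to 0.172).

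**Figure D4:**
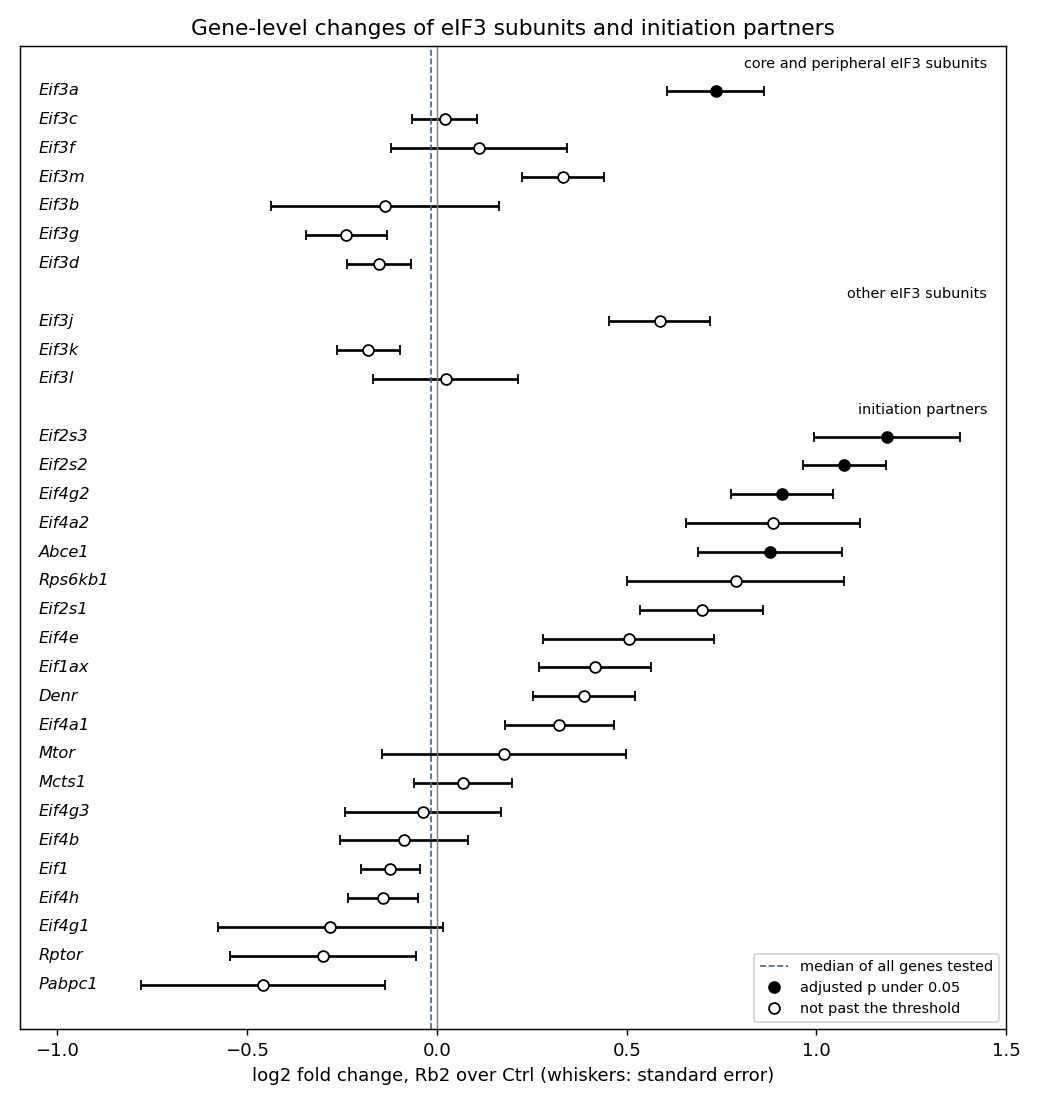
The log2 fold change of Rb2 over Ctrl with its standard error is plotted for 10 eIF3 genes and 20 initiation partners, filled where the edgeR adjusted p is under 0.05, with a dashed line at the median of all genes tested. Eif3a is the filled point among the eIF3 genes, at 0.73, and Eif2s3, Eif2s2, Eif4g2 and Abce1 are filled among the partners.

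The pair of complexes built on the same PCI and MPN folds held no called gene, a count that says little beside the 2.70% called among all genes tested. Of 10 COP9 signalosome genes none passed (median log2 fold change 0.18), and 1 had an unadjusted p under 0.05, Cops3 at 0.47 (edgeR adjusted p = 0.207, and 0.109 to 0.482 over the alternatives, DESeq2 included). Of 9 genes of the proteasome lid none passed (median 0.03), and 1 had an unadjusted p under 0.05, Psmd3 at -0.38 (edgeR adjusted p = 0.105, and 0.053 to 0.365 over the alternatives, DESeq2 included). Among all genes tested, 20.0% had an unadjusted p under 0.05. Eif3a had a larger fold change than any of these 19 genes, a difference that was not tested.

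The mean log2 profile of the 7 eIF3 genes over the 6 samples was at 0.0056, 0.057 and 0.10 in Rb2 replicates 1 to 3, against -0.00099, -0.14 and -0.022 in Ctrl replicates 1 to 3, around its own mean. The groups did not overlap on this scale, by a narrow margin between Rb2 replicate 1 and Ctrl replicate 1, and the sum of the same genes in CPM did overlap. Taken singly, 27.2% of all genes tested had groups that did not overlap. The mean includes the called gene Eif3a, whose log2 fold change of 0.73 was the largest of the 7. A profile without Eif3a is not given here, so the gap is no separate evidence of a shared rise. The 5 genes nearest to it, by the root mean square difference over the 6 samples among 6600 genes with a symbol and at least 5 CPM, were Cyb5b (0.016), Nudt8 (0.037), Pdgfa, Rrp1b and Hyal2 (0.050 to 0.051). These genes were picked for their closeness, so their distances are not comparable with those of the eIF3 genes, which ran from 0.079 (Eif3c) to 0.357 (Eif3b). The profile is a mean over genes that lay on both sides of 0.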

How the data were processed

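The authors deposited whole-number counts per gene and per transcript with row lengths, per the file headers, and CPM. Dividing each deposited gene count by its column total gave the deposited gene CPM (largest difference 4.9e-11). The submitters' processing notes list HISAT2, DESeq2 and mm10 without saying what each was used for. The identifiers are those of rat, so which build was aligned to is unsettled. The read type is unsettled too, since new models carry ONT identifiers and the labels a short-read kit. Another 18 per-sample columns of each file could not be matched to these samples and were left unused.

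The whole table of counts was fitted in edgeR 4.0.16 (R 4.3.3) (TMM, filterByExpr on group, robust quasi-likelihood fit, Benjamini-Hochberg, call at 0.05). Positive log2 fold changes mean higher in Rb2, and each SE was derived from the F statistic. Transcript usage was tested with diffSpliceDGE (Simes). Single shares and ratios were compared by exact permutation. Alternatives included DESeq2 1.42.0, limma 3.58.1, other scalings and filters, and each sample left out. The length offset came from a loess fit, per library, of log-ratios against gene length (span 0.5). A count of 0 allows up to 3 counts, or 0.341 to 0.578 CPM; intervals and limits cover counting error only. Each fit was tested on simulated Rb2 and Ctrl counts. At 2-fold and 4-fold changes, the gene fit (11235 genes) found 45 and 85 of 100, the transcript fit (15685 transcripts) 6 and 47, and the usage test (3083 genes) 3 and 17. Among unchanged features, the 3 fits made 11, 11 and 8 calls over both fold sizes together.

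Named are all 10 eIF3 genes with a row, up to 6 called members of each other list or the one with the smallest p, transcripts with at least 10% of a gene's counts, and the 5 nearest profiles. ONT.2339.1 and ONT.16702.2 were named after their values were seen. Members, lists and tests were chosen with earlier results of these data known.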

Additional observations from a re-analysis of the deposited data

How the results depend on the processing

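Eif3a was called alone among the 7 eIF3 genes as reported and in 11 of 12 alternatives with all samples. With the replicate number as a block, 0 were called (Eif3a log2 fold change 0.74, edgeR adjusted p = 0.0691), and 33 genes in all, and Eif2s3 (adjusted p = 0.051) and Abce1 (0.0909) were not called either. The labels do not say whether the numbers pair the samples. Same-numbered samples had correlations of deviations of -0.067, -0.061 and -0.007, and differently numbered samples -0.12 to 0.16. With 3 samples in each group, these values cannot settle whether samples were paired. Leaving out 1 sample gave 0 to 2 eIF3 genes, and 3 to 896 genes in all, against 312. The count over all genes was 543 with library size only, 536 with no filter, 601 and 559 on log2 of CPM plus 1 or 0.1, and 113 among known genes. DESeq2 called 1 eIF3 transcript. The cause was not tested, except that fewer genes or samples were used where some were left out. The call and direction of Eif3d, Eif3g and Eif3k were the same in all 18 alternatives.

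Signs changed in genes that were not called. Eif3b was at 0.049 and 0.050 on log2 of CPM plus 1 and plus 0.1, and between -0.32 and 0.31 with 1 sample left out (0.31 without Ctrl replicate 1). Eif3c was at -0.028 with upper-quartile factors, -0.11 with the length offset and -0.025 among known genes, and between -0.024 and 0.093 with 1 sample left out (-0.024 without Ctrl replicate 2). Eif3f ran between -0.012 (without Ctrl replicate 2) and 0.41 with 1 sample left out. Eif3l was at -0.021 with upper-quartile factors, -0.058 with the length offset and -0.017 among known genes, and between -0.17 (without Ctrl replicate 1) and 0.16 with 1 sample left out, with -0.043 without Rb2 replicate 1.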
